A study of Mus musculus with 8 samples.

Results

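Dio1, Thra, Thrb, Slc16a10 and Klf9 are 5 genes by which a cell activates, takes up, senses and answers thyroid hormone. They were selected on the difference in counts between DSS and DSS+CA in these same libraries, together with their roles in 1 pathway, and each symbol matched 1 of the 34745 genes in every table. All 5 passed the expression filter that left 9913 genes for testing. The study sequenced RNA from crypts, the glands of the intestinal epithelium, in 8 libraries of wild-type (WT) C57BL/6 mice at day 5. In 4 libraries the mice had received DSS, dextran sulfate sodium, which damages the epithelium and brings on colitis. The other 4 carry the treatment label DSS+CA, where CA is cholic acid, a primary bile acid, so that both groups share DSS and no untreated crypts enter the comparison. The question was how transcripts of crypts under DSS differ when cholic acid is added. The labels give neither gut segment, age, dose and route of either compound, nor whether libraries came from separate animals, so the p-values reflect spread among these libraries alone, and that spread may be technical.

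The thyroid releases mainly the prohormone thyroxine, and deiodinases, enzymes that carry selenocysteine at the active site, remove iodine from it to make or destroy active triiodothyronine. Transporters carry both hormones across cell membranes, and the nuclear receptors encoded by Thra and Thrb, usually paired with a retinoid X receptor, bind DNA and switch target genes such as Klf9 when hormone binds them. In the intestinal epithelium the receptor encoded by Thra is known for its part in the renewal of crypt cells. In liver, the transcription factor encoded by Klf9 is known to act on the promoter of Dio1.

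All 5 genes are protein coding. On GRCm38 (mm10), Dio1 (ENSMUSG00000034785) lies on the minus strand of chromosome 4 from 107291465 to 107307169, and Slc16a10 (ENSMUSG00000019838) on the minus strand of chromosome 10 from 40033535 to 40142254. On plus strands lie Thra (ENSMUSG00000058756) on chromosome 11 from 98740638 to 98769006, Thrb (ENSMUSG00000021779) on chromosome 14 from 17660960 to 18038088, and Klf9 (ENSMUSG00000033863) on chromosome 19 from 23141226 to 23166911. Counts were summed per gene, and GENCODE lists 4 protein-coding transcripts for Thra, so the receptor isoform that binds hormone and the one that does not cannot be told apart. The 3′ end of Thra also overlaps 1075 bases of Nr1d1, a clock gene on the opposite strand, and reads there could be split between the 2 genes in an unknown way because the strand setting of the counting is not given.

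The promoter of Dio1 is shown because Dio1 was the gene whose level differed most between the groups. It is the 250 bases before the RefSeq start on GRCm38.p6, at chr4:107307169-107307418 on the minus strand, written 5′ to 3′ with matches to the box CACCC, a core that KLF factors bind, in capitals.
Dio1 promoter: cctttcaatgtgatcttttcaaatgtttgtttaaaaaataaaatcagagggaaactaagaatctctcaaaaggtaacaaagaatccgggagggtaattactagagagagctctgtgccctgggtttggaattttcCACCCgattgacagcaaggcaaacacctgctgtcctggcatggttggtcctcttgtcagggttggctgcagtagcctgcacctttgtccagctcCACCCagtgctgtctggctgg
The box matched at 2 places, and 52.0% of the 32851 mouse promoters of the same length held it on either strand. The half-site AGGTCA, which thyroid hormone receptors and their relatives bind, had no match there on either strand. It was found once among the 5 promoters listed for 4 of the genes, before the first start of Thrb, in the stretch chr14:17660766-17660791 on the plus strand, with the half-site in capitals.
Thrb half-site: gagagttgacAGGTCAagggaatagg
Of all promoters, 14.0% held the half-site. Direct repeats of it with 1 or 4 free bases and inverted repeats with 0 or 1 free base had no match in any of the 5 promoters. Only exact matches to these letters were counted, so variants of a site would be missed. These are descriptions of letters in a window, not of bound sites. No promoter of Thra was listed.

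Total counts ran from 13334012 to 17973196 per library. The libraries DSS 2, DSS 3 and DSS+CA 3 stood apart in both groups, with a mean length of a counted gene of 1423, 1448 and 1445 bases against 1719 to 2412 bases in the others, and results without them are given below. The mitochondrial share of counts was 16.2, 27.7, 17.8 and 19.8% in DSS 1 to 4 and 9.72, 14.1, 20.5 and 13.2% in DSS+CA 1 to 4, higher in most DSS libraries with DSS+CA 3 as the exception; its part in the results was not tested. Crypt markers were present, with the stem cell gene Olfm4 at 748 and 405 CPM in DSS and DSS+CA and Lgr5 at 7.43 and 2.56 CPM. The other crypt base genes differed less evenly. Slc12a2 was at 182.7 and 100.2 CPM, Ascl2 at 3.356 and 2.585, Axin2 at 37.91 and 33.65, and Smoc2, which went the other way, at 45.46 and 49.91. Absorptive enterocyte genes were abundant as well, so the libraries were not of crypt base cells alone. Genes of the small intestine were abundant, with the ileal bile acid binding gene Fabp6 at 812 and 922 CPM and the lactase gene Lct at 864 and 496 CPM in DSS and DSS+CA. Of colon genes, Car1 had 0 counts and Hoxb13 2, while Car4 was at 125 and 236 CPM. CPM here is the count of a gene relative to its library total, scaled between libraries by TMM and not corrected for gene length.

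Dio1, the deiodinase that converts thyroxine to triiodothyronine and clears iodothyronines, was about 10 times lower in DSS+CA. Its level was 37.1, 74.1, 36.1 and 38.4 CPM in DSS 1 to 4 and 4.75, 5.51, 3.89 and 3.38 CPM in DSS+CA 1 to 4. The groups did not overlap: the lowest DSS library was 6.56 times the highest DSS+CA library, DSS 2 was the high library of its group, and the 4 DSS+CA libraries lay close together. These levels rest on 2736 counts in DSS and 277 in DSS+CA. The means were 46.4 ± 18.5 and 4.38 ± 0.940 CPM (SD, n = 4 each), a log2 fold change of -3.40 (SE 0.356), or 10.6-fold lower. Dio1 was listed because of this difference, so it is a description and carries no test of its own.

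The same Dio1 values can be described without any scaling between libraries. Within each library, the deposited FPKM (counts scaled by gene length and library total) of Dio1 was divided by that of each other gene of the 5. Dio1 stood at 0.454 to 2.22 of Thra in DSS and at 0.0684 to 0.161 in DSS+CA. Against Thrb it was 5.84 to 25.6 and 0.660 to 1.14, against Slc16a10 0.181 to 0.800 and 0.0200 to 0.0370, and against Klf9 1.38 to 5.26 and 0.169 to 0.338. None of the 4 ratios overlapped between the groups, which restates the difference Dio1 was chosen for and adds no support to it. Without DSS 2, DSS 3 and DSS+CA 3, which leaves 2 DSS and 3 DSS+CA libraries, the log2 fold change of Dio1 was -3.08 (SE 0.238).

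**Figure D1:**
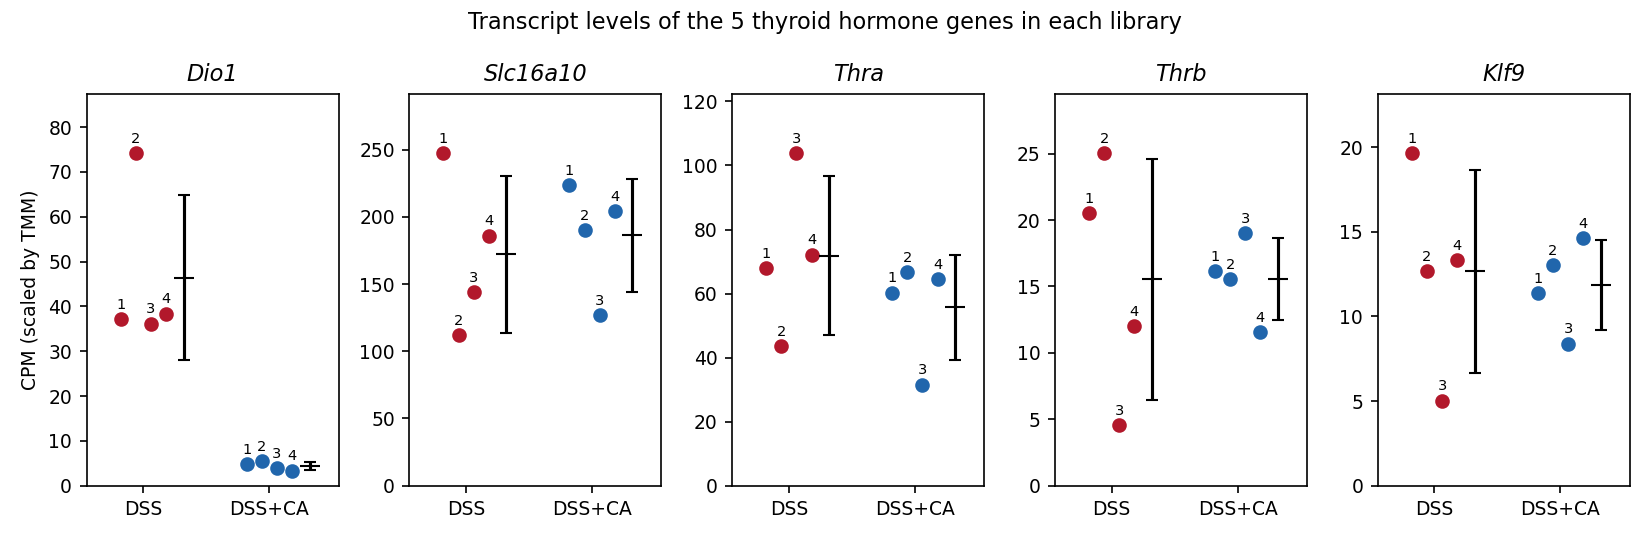
Levels of the 5 genes in CPM (y axis, linear from 0, 1 scale per gene) in the 4 DSS libraries (red) and 4 DSS+CA libraries (blue); each point is a library with its replicate number, and the bar beside each group is mean ± SD. Dio1 is at 36.1 to 74.1 CPM in DSS and 3.38 to 5.51 CPM in DSS+CA, while the groups overlap for the other 4 genes.

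The other deiodinase genes were all but silent. Dio2, which makes triiodothyronine inside cells, had 5 counts in the 8 libraries together. Dio3, which inactivates the hormone, had 0 counts of 122880285, which allows up to 3 counts or 0.0244 CPM; this limit covers counting error only. In crypts of both groups Dio1 was therefore the one deiodinase with a measurable level.

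Genes next to Dio1 on chromosome 4 had smaller log2 fold changes than Dio1. Yipf1, which starts 7194 bases beyond it, was at 45.2 ± 8.08 and 44.5 ± 6.58 CPM in DSS and DSS+CA (log2 fold change -0.02, SE 0.262). Hspb11, 11527 bases away on the other side, was at 6.35 ± 3.10 and 3.92 ± 3.29 CPM (-0.72, SE 0.553). The next tested genes out, Lrrc42 and Ndc1, were at -0.38 (SE 0.264) and 0.68 (SE 0.349), and for Lrrc42 the groups did not overlap. None of these 4 passed in edgeR, with adjusted p-values of 0.717 to 0.9995. Without DSS 2, DSS 3 and DSS+CA 3 they were at 0.06 (Yipf1), -0.84 (Hspb11), -0.47 (Lrrc42) and 0.37 (Ndc1), and again none passed. Of the 3 protein-coding genes taken on each side, Ldlrad1 and Glis1 were below the filter.

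Slc16a10, a transporter of aromatic amino acids and thyroid hormone on the basolateral side of epithelial cells, had the highest level per length of the 5. It was at 247, 112, 144 and 186 CPM in DSS 1 to 4 and at 224, 190.1, 127 and 204 CPM in DSS+CA 1 to 4. DSS 2, DSS 3 and DSS+CA 3 were the low libraries, and the groups overlapped. The means were 172 ± 58.4 and 186 ± 41.9 CPM (SD, n = 4), with a log2 fold change of 0.11 (SE 0.326), and -0.11 without those 3 libraries.

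Thra was at 68.0, 43.6, 104 and 72.1 CPM in DSS 1 to 4 and at 60.2, 66.8, 31.5 and 64.4 CPM in DSS+CA 1 to 4. DSS 3 was the high library and DSS+CA 3 the low one, and all 4 DSS+CA values lay below the DSS median while the groups overlapped. The means were 71.9 ± 24.7 and 55.7 ± 16.4 CPM (SD, n = 4), with a log2 fold change of -0.37 (SE 0.345), and -0.16 without the 3 libraries of short counted genes. Nr1d1, the gene that overlaps it, was at 50.4 ± 20.8 and 45.1 ± 22.8 CPM.

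Thrb, the second receptor gene, varied most among the DSS libraries, at 20.5, 25.0, 4.56 and 12.0 CPM in DSS 1 to 4, a 5.48-fold range. In DSS+CA 1 to 4 it was at 16.2, 15.6, 19.0 and 11.6 CPM, all within the range of the DSS libraries. The means were 15.5 ± 9.08 and 15.6 ± 3.07 CPM (SD, n = 4), with a log2 fold change of 0.00 (SE 0.449), and -0.21 without the 3 libraries. DSS 3 held the lowest Thrb and the highest Thra of all 8 libraries.

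Klf9, a transcription factor gene that thyroid hormone and glucocorticoids both induce, was at 19.6, 12.7, 5.02 and 13.3 CPM in DSS 1 to 4. It was at 11.4, 13.0, 8.38 and 14.6 CPM in DSS+CA 1 to 4, where the groups overlapped fully, and DSS 3 and DSS+CA 3 were the low libraries. The means were 12.7 ± 5.98 and 11.9 ± 2.66 CPM (SD, n = 4), with a log2 fold change of -0.09 (SE 0.394), and -0.38 without the 3 libraries.

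Of the 5 genes, 1 (Dio1) passed an adjusted p of 0.05 in edgeR, among 13 of the 9913 tested genes (0.131%, or 0.0908% lower and 0.0404% higher in DSS+CA). The groups did not overlap in that same gene alone, against 6.05% of tested genes (2.81% lower and 3.24% higher). Because these genes were chosen with the comparison known, neither count is evidence about them. The fits do not show that the other 4 genes were equal between the groups, since their standard errors, 0.326 to 0.449 on the log2 scale, leave room for moderate changes.

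**Figure D2:**
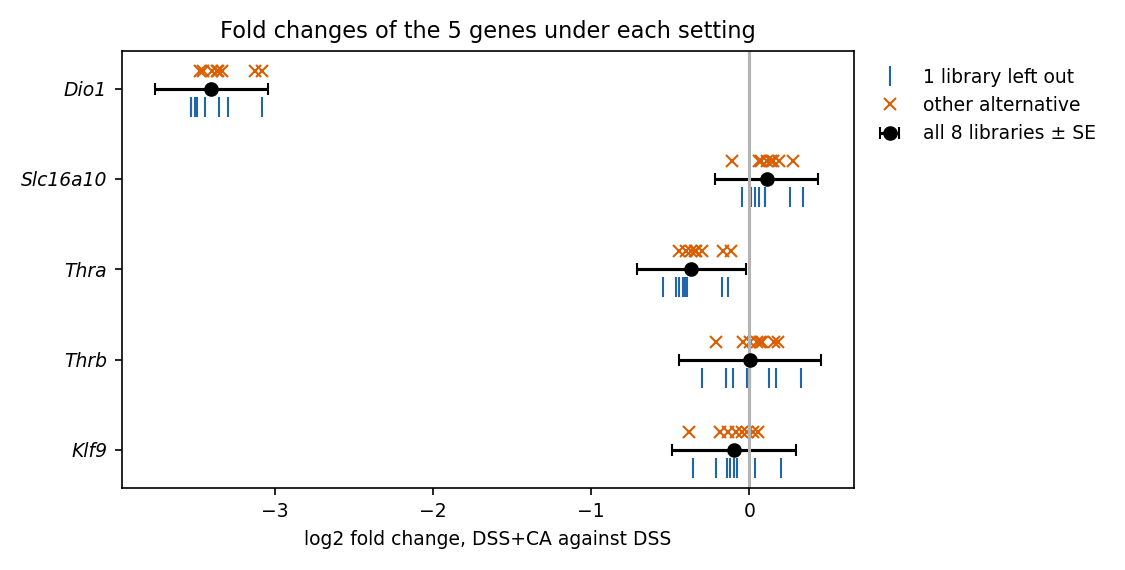
Log2 fold change of each gene (x axis, DSS+CA against DSS) with all 8 libraries (black point, bar ± SE), with 1 library left out (blue ticks) and under the other alternatives (orange crosses). Dio1 stays between -3.53 and -3.08, Thra stays below 0, and Slc16a10, Thrb and Klf9 fall on both sides of 0.

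Compared per length, the order of the genes was Slc16a10, Thra, Dio1, Klf9 and Thrb in DSS, with median FPKM values of 28.3, 13.3, 9.34, 3.46 and 1.05. In DSS+CA it was Slc16a10, Thra, Klf9, Dio1 and Thrb, at 42.1, 13.0, 4.54, 1.12 and 1.10 FPKM. The order depends on the counted lengths, 4468 bases for Dio1 and 14427 for Thrb. In CPM the DSS+CA means of Dio1 and Thrb were 4.381 and 15.58. Among the DSS libraries only Slc16a10 (15.1 to 55.7 FPKM) and Thra (5.45 to 14.7) had neighbouring ranges that did not overlap, and by little. In DSS+CA, Slc16a10 lay clear of Thra and Klf9 (1.89 to 5.15) clear of Dio1 (0.638 to 1.42), whereas Thra and Klf9, and Dio1 and Thrb, overlapped. Dio1 had a higher median FPKM than 67.6% of tested genes in DSS and than 4.44% in DSS+CA. Slc16a10 stood above 86.6% and 89.0% of them.

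**Figure D3:**
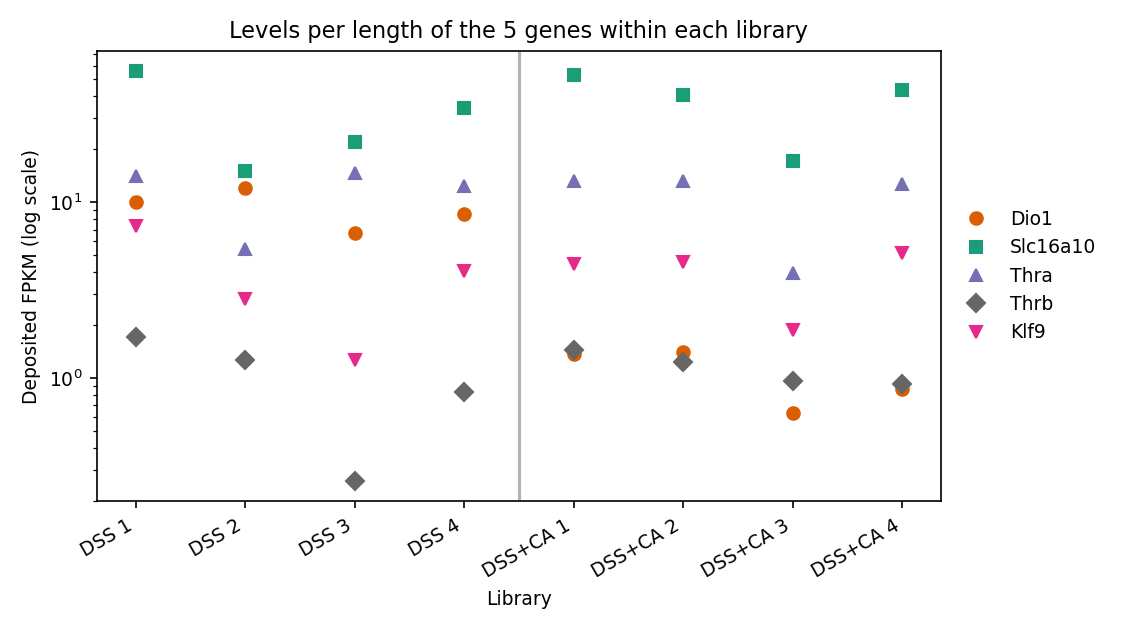
Deposited FPKM (y axis, log scale) of the 5 genes in each of the 8 libraries (x axis), DSS on the left of the grey line and DSS+CA on the right. Slc16a10 is highest in every library, and Dio1 drops from 6.67 to 12.1 FPKM in DSS to the level of Thrb, 0.638 to 1.42 FPKM, in DSS+CA.

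Thra and Klf9 were then each set against a relative in the same library, a comparison that does not use the groups. Thra exceeded Thrb in 8 of 8 libraries, by a mean log2 ratio of 3.26 ± 1.08 (SD, n = 8) on FPKM plus a pseudocount of 0.1, or 9.60-fold (exact two-sided sign-flip permutation test, p = 0.00781, adjusted p = 0.0117 over the 3 ratios computed). Single libraries ranged from 3.81-fold in DSS+CA 3 to 41.0-fold in DSS 3. The size of the ratio depends on the counted lengths, 5825 bases for Thra and 14427 for Thrb. In CPM, which leaves out length, the means of Thra and Thrb were 71.85 and 15.52 in DSS and 55.72 and 15.58 in DSS+CA. Whether the whole counted length of Thrb is transcribed in these crypts was not tested. Klf9 and Klf13, its close relative, differed by -0.10 ± 0.610 (SD, n = 8; same exact test, p = 0.656, adjusted p = 0.656), with Klf9 higher in 3 of 8 libraries. The ratio of Klf9 to Klf13 also depends on the counted lengths. In CPM the means of Klf9 and Klf13 were 12.65 and 33.18 in DSS and 11.85 and 35.38 in DSS+CA. The smallest p that 8 libraries allow is 0.00781.

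The 5 genes did not all vary together over the libraries. They were described by Pearson's r of log2 CPM over the 8 libraries, which share depth, scaling and the group difference. The mean length of a counted gene, which set DSS 2, DSS 3 and DSS+CA 3 apart, was not corrected for in r. Thra and Thrb ran against each other at -0.75. Thrb and Klf9 ran together at 0.69, Slc16a10 and Klf9 at 0.57, and Thra and Slc16a10 at 0.46. Thra and Klf9 were at -0.15, and Thrb and Slc16a10 at -0.005. Dio1 stood between -0.27 (Slc16a10) and 0.29 (Thra). The genes most like Dio1 by this measure were 2010109I03Rik (0.989), Apol9b (0.988) and Nt5e (0.986), which all fell with it between the groups. Iglj2 and Trbj2-3, immune receptor joining segments, followed at 0.980 each but held 4 counts each in DSS and 0 in DSS+CA. Nearest to Slc16a10 were Mfap3 (0.998), Abr (0.994) and Zdhhc9 (0.992), and nearest to Thra were Phc2 (0.987), Fzr1 (0.986) and Ppp1r37 (0.986). Thrb was closest to Stk38l (0.986), Psme4 (0.983) and Suv420h1 (0.981), and Klf9 to 1810017P11Rik (0.976), Prkx (0.974) and Dync1li2 (0.968).

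Around these 5, 121 further genes of thyroid hormone handling and of related families were listed by role, and 92 of them were tested. The lists were chosen with earlier results of these data known. The shares below are therefore descriptions and not evidence that the listed genes changed more often than others. In edgeR 0 passed in either direction after adjustment over all genes, with a smallest adjusted p of 0.0820, and 16 had an unadjusted p below 0.05 (17.4%, against 7.82% of all tested genes). DESeq2 called 5 of them (5.43%, against 2.22% of all genes it tested), Me1, Slc7a5 and Fkbp5 higher and Slc17a4 and Selenop lower. The groups did not overlap in 7 genes that were higher and 3 that were lower (10.9%, against 6.05% of all tested genes). Without DSS 2, DSS 3 and DSS+CA 3 edgeR called 14 of the 92 (15.2%, against 6.61% of all tested genes), 5 higher and 9 lower. Among the higher genes were Me1 (1.78), Fkbp5 (1.68), Slc7a5 (1.558) and Pparg (0.99), and among the lower Duoxa2 (-2.12), Duox2 (-2.04), Npas2 (-1.65), Slc17a4 (-1.549), Selenop (-1.525), Ppargc1a (-1.33), Klf4 (-0.98) and Gpx1 (-0.94), each with its log2 fold change.

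Of the 5 tested transporters besides Slc16a10, 4 were above 0 and 1 below, and 0 passed with all libraries. Slc17a4, a brush-border carrier known to move thyroid hormone, was at 54.2, 46.4, 25.8 and 39.9 CPM in DSS 1 to 4 and at 18.1, 16.4, 16.8 and 14.8 CPM in DSS+CA 1 to 4, with no overlap. Its log2 fold change was -1.33 (SE 0.293, adjusted p = 0.106 in edgeR). Of the edgeR fits with 1 library left out, it passed only without DSS 3 (adjusted p = 0.0374), against 0.07613 to 0.4143 in the others. Slc7a5, the light chain of the amino acid and thyroid hormone carrier LAT1, was at 7.99, 3.28, 8.22 and 6.93 CPM in DSS and 23.6, 23.4, 9.82 and 20.3 CPM in DSS+CA, every DSS+CA library above every DSS library. On the log2 scale it was 1.547 higher (SE 0.390, adjusted p = 0.159 in edgeR). With 1 library left out, it passed in edgeR only without DSS+CA 3 (adjusted p = 0.0461), against 0.154 to 0.5079 in the other such fits. The median log2 fold change of the 5 was 0.32, against 0.02 over all tested genes.

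Receptor partners and co-regulators showed small differences. The retinoid X receptor genes Rxra (96.4 ± 32.8 and 94.8 ± 33.9 CPM) and Rxrb (30.4 ± 11.8 and 24.3 ± 6.73 CPM) had log2 fold changes of -0.02 (SE 0.382) and -0.32 (SE 0.349), and the sign for Rxra turned under other settings. Of 12 co-regulator genes 0 passed, with a median of -0.12. Hdac3, the deacetylase of the corepressor complex, was at 49.1 ± 4.12 and 72.8 ± 17.98 CPM without overlap (0.57, SE 0.272, adjusted p = 0.669 in edgeR), and the acetyltransferase gene Crebbp was at -0.33 (SE 0.345).

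Of 8 tested genes besides Klf9 that are known to respond to thyroid hormone, 6 were above 0 and 2 below, 0 passed, and the median was 0.56. The malic enzyme gene Me1, which the hormone induces in liver, was at 8.05, 13.8, 9.51 and 7.497 CPM in DSS 1 to 4 and 31.96, 25.6, 23.6 and 24.3 CPM in DSS+CA 1 to 4. All DSS+CA libraries lay above all DSS libraries, a log2 difference of 1.44 (SE 0.296, adjusted p = 0.0820 in edgeR). Ppargc1a, a coactivator of mitochondrial genes, was at 43.6 ± 15.8 and 21.6 ± 5.54 CPM (-1.01, SE 0.346, adjusted p = 0.376 in edgeR).

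Of 6 tested hormone binding and conjugation genes 4 were above 0 and 2 below, 0 passed, and the median was 0.45. Iyd, which recovers iodide from iodotyrosines, was at 17.9, 58.5, 21.2 and 29.0 CPM in DSS and 11.8, 14.1, 16.9 and 11.4 CPM in DSS+CA without overlap, though the nearest libraries of the 2 groups were close (-1.23, SE 0.390, adjusted p = 0.315 in edgeR). Ugt1a6a, a glucuronidating enzyme whose reads related Ugt1a genes can share, was at 13.8 ± 5.94 and 30.8 ± 7.53 CPM (1.16, SE 0.363, adjusted p = 0.303 in edgeR).

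Dio1 is a selenoprotein, made by machinery that inserts selenocysteine. Of 7 genes of that machinery 6 were above 0, 1 was below and 0 passed, with a median log2 fold change of 0.11. Sepsecs, which makes the selenocysteine on its tRNA, was at 23.7 ± 3.73 and 41.0 ± 12.7 CPM (0.79, SE 0.309, adjusted p = 0.501 in edgeR), and the elongation factor gene Eefsec at 0.36 (SE 0.413). Among 14 other selenoproteins 0 passed, 9 were below 0 and the median was -0.05. Selenop, the secreted selenium carrier listed as Sepp1 in the tables, was at 2253, 4624, 2393 and 2732 CPM in DSS 1 to 4 and 617, 1031, 1711 and 1003 CPM in DSS+CA 1 to 4 without overlap (-1.46, SE 0.414, adjusted p = 0.228 in edgeR). The peroxidase gene Gpx1 was at 174 ± 57.2 and 95.8 ± 13.1 CPM (-0.86, SE 0.308, adjusted p = 0.419 in edgeR).

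Of 9 other KLF genes tested 0 passed, with a median of -0.01. Klf4, which promotes differentiation of the epithelium, was at 164 ± 61.3 and 102 ± 20.9 CPM (-0.69, SE 0.331, adjusted p = 0.669 in edgeR), and Klf6 at 146 ± 65.8 and 125 ± 11.7 CPM (-0.22, SE 0.375). Klf13 was at 33.2 ± 13.9 and 35.4 ± 13.6 CPM.

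**Figure D4:**
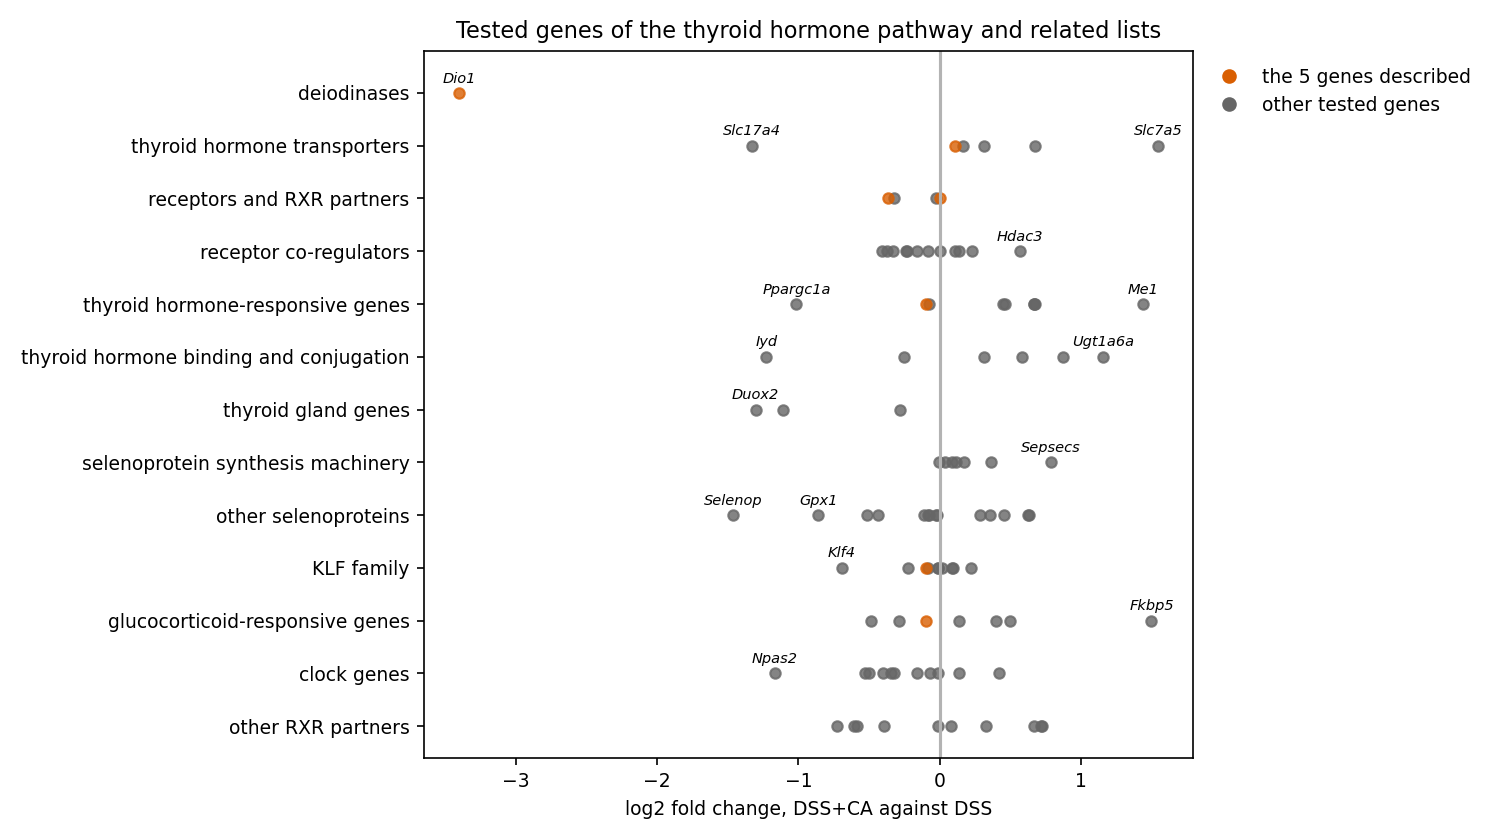
Log2 fold change (x axis, DSS+CA against DSS) of each tested gene in the 13 lists (y axis, 1 line per list); the 5 genes described are orange and the others grey, with some names written above their points. Dio1 at -3.40 lies apart from every other gene drawn, which range from -1.46 (Selenop) to 1.547 (Slc7a5).

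No tested marker gene of the cell type lists passed in edgeR. All genes of the fibroblast, endothelial, smooth muscle and enteric neuron and glia lists were below the filter, so none of them could pass. The summed levels did not overlap between the groups for the T and NK cell, B and plasma cell, goblet, enteroendocrine, fibroblast, endothelial and colon lists. Among single tested genes 6.05% did not overlap. A sum over several marker genes is a different measure, so that share is no background rate for the lists. The summed level of 6 T and NK cell genes was 137 to 221 CPM in DSS and 33.4 to 79.2 CPM in DSS+CA, and that of 5 B and plasma cell genes 29.2 to 68.7 and 6.55 to 22.5 CPM, neither overlapping. The 5 goblet cell genes summed to 4202 to 6844 and 2547 to 3145 CPM and the 5 enteroendocrine genes to 170 to 275 and 123 to 162 CPM, also apart. Sums of 7 absorptive enterocyte genes (20030 to 78570 and 23060 to 73310 CPM), 5 Paneth cell genes (5691 to 37260 and 4334 to 17180 CPM) and 6 crypt base genes (445 to 1635 and 294 to 735 CPM) overlapped. All 5 Paneth cell genes had log2 fold changes below 0. Of tested enterocyte genes 4 were below 0 and 3 above, and of tested crypt base genes 4 below and 1 above. Stromal sums were low. They were apart for 5 fibroblast genes (1.86 to 5.79 and 0.600 to 1.84 CPM) and 4 endothelial genes (0.958 to 2.62 and 0.506 to 0.898 CPM). For 4 smooth muscle genes they overlapped (0.6085 to 4.207 and 0.3164 to 0.6541 CPM). Sums of 5 myeloid genes (15.97 to 23.49 and 6.201 to 16.77 CPM) and 4 tuft cell genes (15.94 to 30.43 and 11.86 to 19.73 CPM) overlapped too. The neural markers Elavl4 and Sox10 had 0 counts. The 4 colon genes ran the other way, at 95.5 to 209 CPM in DSS and 212 to 309.9 CPM in DSS+CA, mostly Car4, while sums of 3 proximal small intestinal genes (616 to 1412 and 203 to 914 CPM) and 2 ileal genes (419 to 1240 and 456 to 2216 CPM) overlapped. The part of these cell types in the level of Dio1 was not tested, and in whole crypts fewer cells of a type and less RNA per cell cannot be told apart.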

How the data were processed

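Per the file headers, the authors deposited 1 table for each of the 8 libraries, giving raw counts and FPKM by Ensembl gene. Stranded total RNA libraries followed RNeasy Micro extraction, per the labels' protocols. Per the submitters' processing notes, the tools named are HISAT2 and StringTie and the build GRCm38 (mm10), with no version or role. Not given in the sources used here are counting tool, strand setting and annotation. The deposited FPKM equalled the count over a fixed gene length and the library total, within 1% for 17718 of 17718 genes. Genes with FPKM of at least 1 in at least 4 libraries (9913) were tested with edgeR 4.0.16 (limma 3.58.1, R 4.3.3): TMM, quasi-likelihood, group as the only term, two-sided, Benjamini-Hochberg over all tested genes, threshold 0.05. SE is the absolute log2 fold change over the square root of F. DESeq2 1.42.0 was an alternative. The procedure was tested on simulated data. The design foresaw protein sequences, which were not used here, and a motif search that ran past the start site; only the 250 bases before it were searched.

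The 5 genes, the lists and the tests were chosen with earlier results of these data known. Named genes were the 5, the fixed relatives Dio2, Dio3, Nr1d1 and Klf13 (1 other, with its ratio, is not reported here), any list gene past the threshold or else the 2 of smallest p per list, and the genes most like each of the 5. The neighbours of Dio1, the box CACCC and the HNF4-type element CAAAGTCCA were added after values were seen. The HNF4-type element had no exact match in these promoters, and 0.384% of all promoters held it. Variants of its letters were not searched. Of the listed genes 114 matched by symbol and 7 by a newer or older symbol. Promoters are RefSeq's on GRCm38.p6, for 4 of the 5 genes. Alternatives were other scalings and filters, DESeq2, a gene length offset, the replicate number as a block, each library left out, and DSS 2, DSS 3 and DSS+CA 3 left out together. Ratios and plots used numpy 2.4.6 and matplotlib 3.10.9 under Python 3.11.15.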

Additional observations from a re-analysis of the deposited data

Results flagged for a closer look

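Of 96 groups of 4 libraries checked, 9 had 1 library far from the other 3 on the log2 CPM scale, where chance flags about 1 in 20. For Dio1 it was DSS 2, at 74.1 CPM against 36.1 to 38.4 in the other DSS libraries. Scaled to library totals alone, DSS 2 was at 54.1 CPM against 29.8 to 45.04 and no longer stood apart by this measure. The other 8 were all the library DSS+CA 3. It was low for Thra (31.5 CPM), Rxra (44.7 CPM), Klf13 (15.3 CPM), Slc7a5 (9.815 CPM), Sepsecs (22.4 CPM), Fzr1 (17.2 CPM) and Ppp1r37 (28.0 CPM), and high for Duoxa2 (13.8 CPM). On library totals DSS+CA 3 still stood apart for Thra, at 23.1 CPM against 74.1 to 77.5 in the other DSS+CA libraries. Without DSS+CA 3 the log2 fold change of Thra was -0.17.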

How the results depend on the processing

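The log2 fold change of Dio1 kept its sign under all 16 alternatives run, from -3.53 to -3.08, and that of Thra from -0.54 to -0.11. Thrb (-0.30 to 0.33), Slc16a10 (-0.11 to 0.34) and Klf9 (-0.38 to 0.20) took both signs. Scaling to library totals moved the median of all genes by 0.186; relative to that shift Dio1 was at -3.31, Thra at -0.30, Thrb at -0.03, Slc16a10 at 0.09 and Klf9 at -0.13. The count of called genes depended on the setting: 4 higher and 9 lower became 2 and 6 with library totals, 18 and 61 with no filter, 18 and 53 with the gene length offset, 51 and 169 with DESeq2, and 234 and 421 without DSS 2, DSS 3 and DSS+CA 3. With 1 library left out edgeR called 0 to 19 higher and 4 to 65 lower. It called 0 higher without DSS 1, DSS 2, DSS 4, DSS+CA 2 or DSS+CA 4, with 118 to 365 higher genes at an unadjusted p below 0.05. The counts were 11 and 25 without DSS 3, 19 and 65 without DSS+CA 3, and 4 lower without DSS+CA 2 or DSS+CA 4. The cause was not tested. Of the other listed genes, 0 higher and 0 lower became 3 and 2 with DESeq2 and 5 and 9 without the 3 libraries, and 0 to 1 in each direction with 1 library left out. Rxra turned to 0.18 with library totals, 0.047 with no filter and 0.011 with filterByExpr, and spanned -0.24 to 0.21 with 1 library left out. Without the 3 libraries the ratio of Thra to Thrb (3.36) no longer passed, as the exact test then cannot; Klf9 to Klf13 spanned -0.24 to 0.040 with 1 library left out, and was above 0 only without DSS 3. The replicate number as a block gave 14 higher and 51 lower; the numbers mark no shared source in the labels, the same-numbered libraries correlated at 0.75, -0.34, 0.11 and 0.20, and 3 of 8 correlated best with their own number. Depth limits Dio2 and Dio3, whose differences were not detectable.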

Other observations

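Klf9 also answers to glucocorticoids, and other genes that do so were read from the same fit. Fkbp5, a co-chaperone of the glucocorticoid receptor, was at 76.5, 45.8, 125 and 66.6 CPM in DSS 1 to 4 and 181, 221, 184 and 301 CPM in DSS+CA 1 to 4, with every DSS+CA library above every DSS library (log2 fold change 1.5, SE 0.356, adjusted p = 0.131 in edgeR). DESeq2 called it higher (adjusted p = 0.00553). Sgk1, a kinase gene of the same response, was at 280 ± 51.3 and 370 ± 75.8 CPM (0.40, SE 0.292, adjusted p = 0.893 in edgeR). Of 6 such genes tested besides Klf9, 0 passed in edgeR with all 8 libraries and 4 were above 0. The 2 below 0 were Tsc22d3 (-0.29, SE 0.310) and the glucocorticoid receptor gene Nr3c1 (-0.48, SE 0.382). Without DSS 2, DSS 3 and DSS+CA 3 edgeR called Nr3c1 lower (-0.98, adjusted p = 0.0265) and Fkbp5 higher (1.68, adjusted p = 0.0189).

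Clock genes, to which Nr1d1 belongs, had 9 of 11 tested members below 0, a median of -0.33 and 0 past the threshold. Npas2, a partner of the core clock, was at 22.9 ± 14.5 and 10.2 ± 3.89 CPM (-1.17, SE 0.471, adjusted p = 0.530 in edgeR), and Cry1 at 9.78 ± 2.55 and 13.1 ± 1.61 CPM (0.42, SE 0.296). The labels give no hour of collection.

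Of thyroid gland genes, Tshr had 0 counts, while the oxidase gene Duox2, also a gut epithelial gene, was at 57.5 ± 45.5 and 23.3 ± 4.94 CPM (-1.30, SE 0.533, adjusted p = 0.539 in edgeR) and its maturation factor Duoxa2 at 15.0 ± 5.98 and 6.99 ± 4.56 CPM (-1.11, SE 0.455). Neither passed with all 8 libraries, and both did without DSS 2, DSS 3 and DSS+CA 3 (-2.04 and -2.12). Of 10 other nuclear receptor genes that pair with retinoid X receptors 0 passed, with Pparg at 11.4 ± 3.34 and 18.1 ± 1.33 CPM without overlap (0.67, SE 0.294, adjusted p = 0.609 in edgeR) and Ppara at 20.3 ± 6.10 and 33.4 ± 12.2 CPM (0.72, SE 0.354).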
